A study of Mus musculus with 73 samples.

Results

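A set of 9 enhancer fragments taken from the Pou5f1 locus, named Pou5f1_E076 to Pou5f1_E084 and called E076 to E084 here, were followed through a massively parallel reporter assay of enhancer pairs. They were chosen by their name alone and make up 9 of the 59 enhancer fragments and 9 of the 79 fragments of the assay, the other 20 being inactive controls. Of 110180 measured combinations, 5260 paired a Pou5f1 fragment with a control and 1382 paired Pou5f1 fragments with each other. All measurements came from E14TG2a mouse embryonic stem cells, a naive line kept in 2i and LIF, which block differentiation signals and support self-renewal. Each plasmid carried a barcoded reporter driven by 1 promoter, with a pair of fragments downstream of the barcode, the fragment on the barcode side being in position 1 and the other in position 2, each in plus or minus orientation. There were 8 libraries, 1 for each promoter (Sox2, Klf2, Otx2, Fgf5, Lefty1, Nanog, Tbx3 and the housekeeping gene Ap1m1), and the Pou5f1 promoter was not among them. Every library was transfected on 3 occasions, with cells collected after 24 h, so that the groups differ in the promoter and in nothing else that the labels give. Controls were shuffled versions of open-chromatin fragments or random sequence, in the same plasmids and cells.

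Pou5f1 encodes OCT4, a POU-domain transcription factor that, with SOX2 and NANOG, keeps embryonic stem cells pluripotent. In naive cells the gene is driven mainly by its distal enhancer, and a proximal enhancer nearer to the promoter is used more in primed cells of the epiblast. Enhancers are short stretches of DNA that bind transcription factors and raise transcription from a promoter, in principle from either side and in either orientation.

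The fragments, given with mm10 coordinates on chromosome 17, span 19414 bp. E076 (chr17:35490315-35490764) lies farthest from the gene, 15268 bp before the RefSeq start of Pou5f1. E077 (chr17:35496631-35497080), E078 (chr17:35496908-35497357) and E079 (chr17:35497066-35497515) form an overlapping group, in which E078 and E079 share 292 bp, E077 and E078 share 173 bp, and E077 and E079 share 15 bp. These 4 fragments overlap no RefSeq gene. E080 (chr17:35502739-35503188), E081 (chr17:35503887-35504336), E082 (chr17:35504714-35505163) and E083 (chr17:35505064-35505513) lie in the long non-coding RNA gene Gm32362, ending 2844, 1696, 869 and 519 bp before Pou5f1. E081 falls in the upstream stretch where the distal enhancer of the gene has been described. E082 and E083 share 100 bp. E084 (chr17:35509279-35509728) lies inside Pou5f1 itself, with its centre 3471 bp after the gene start on the plus strand. Whether it covers exon or intron was not determined here.

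The fragments were amplified from E14 genomic DNA, and the primers that bound the 4 fragments on which the results turn are shown because they define what was cloned. Capitals mark 20 bases that the reverse primer of E082 and the forward primer of E083 share on opposite strands. The products of these neighbours therefore hold 34 bases in common, fewer than the 100 bp by which their listed coordinates overlap.
E081 forward: attgaatacagacaggactgctggg
E081 reverse: atgaatcttccgtttcctccactctg
E082 forward: gtgtaggagcagacagacaaacac
E082 reverse: gctctaaCCCTAAACAAGTACTCAACC
E083 forward: attcaagGGTTGAGTACTTGTTTAGGG
E083 reverse: cagagaagtgctggctctgc
E084 forward: gattagacgcttgtagcttgaactgtc
E084 reverse: ggagagagcctgattgattagcaaatg

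The measure was the boost index, the log2 of reporter activity (transcribed barcodes over plasmid barcodes) relative to the median of the control-control combinations of the same library, so that 0 is the level of controls and each unit is a doubling. A single-fragment value is the median over all combinations of that fragment with a control. Control-control activity ranged from a ratio of 0.0866 with Lefty1 and 0.112 with Tbx3 to 0.408 with Otx2 and 0.587 with Ap1m1. The Fgf5 library stood apart. It held 406 of the 491 combinations with an activity of 0 in any replicate, called combinations at 0 here. Its baseline rested on 23 control-control combinations above 0 in all replicates. Boost indices below 0 in that library are given with that limit, and read depth and barcode numbers behind the values are unknown. The 3 transfections of a library share its plasmids and barcodes, so replicate values and limma tests carry the spread between transfections. The rank-sum test of single fragments against controls compares plasmid combinations of the combined value, so its calls rest on the spread between combinations, which are not replicates of the experiment.

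On their own, the fragments of this locus ranged from the strongest of the whole assay to some that were barely above controls, and E081 was far above the rest. Of 70 fragment-promoter pairs, 56 were higher than controls at a 1% false discovery rate (exact rank-sum test, adjusted over all pairs), 3 were lower and 11 did not pass. Among all 451 pairs tested in the assay, 87.6% were higher and 1.77% lower. The share of higher pairs at this locus was therefore near that of the assay as a whole. Neither E076 nor E082 was measured with Fgf5.

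E081 was active with every promoter. With Lefty1 its boost index was 4.83, 4.98 and 5.00 in replicates 1, 2 and 3, and 5.00 when replicates were combined, a 31.9-fold rise over controls from 160 combinations. With Tbx3 the replicates gave 4.98, 4.77 and 4.22, and with Sox2 4.55, 4.40 and 4.49. With Fgf5 they gave 4.31, 3.93 and 3.70, against a combined value of 0.74 for E084, the next highest Pou5f1 fragment in that library. Promoters with a higher baseline gave smaller boosts. The replicates were 2.22, 2.72 and 2.36 with Nanog, 2.13, 2.34 and 2.12 with Klf2, and 2.02, 2.05 and 2.47 with Otx2. Ap1m1 gave the lowest values of this fragment, 0.83, 1.12 and 0.78, a 1.86-fold rise. The replicates of Lefty1, Tbx3, Sox2 and Fgf5 did not overlap those of Nanog, Klf2, Otx2 and Ap1m1. By its mean over promoters, 3.28, E081 ranked first of 58 enhancer fragments, ahead of Klf2_E058 at 3.04 and Nanog_E073 at 2.82. It ranked first in 6 of the 8 libraries, was second in Sox2 behind Klf2_E058 (4.55 against 4.47 on the boost scale) and ranked 5 in Ap1m1.

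E076, E082 and E083 formed a middle group. E076 reached 2.15 with Sox2 (2.43, 1.97 and 1.97 in the replicates), 1.69 with Lefty1 and 1.47 with Tbx3, and fell to 0.41 with Ap1m1. E082 ranged from 0.59 with Ap1m1 to 1.64 with Lefty1 among the 6 libraries in which it passed the test. With Sox2 it had only 3 combinations with a control and did not pass. Outside Fgf5 its neighbour E083 varied less between promoters, with a range of 0.60 against 1.05 for E082. The boost index of E083 there lay between 0.77 with Ap1m1 (0.80, 0.86 and 0.75) and 1.37 with Tbx3 (1.33, 1.38 and 1.18). With Fgf5 it was not distinguishable from controls, at 0.15 from 31 combinations. The mean over promoters placed E076, E083 and E082 at ranks 26, 29 and 30 of 58.

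The weakest fragments were those of the overlapping upstream group and E080. Outside Fgf5, E077 lay between 0.30 and 0.67, E078 between 0.19 and 0.59, and E079 between -0.03 and 0.52. E080 was highest with Sox2, at 1.03 (1.20, 1.02 and 1.17), and lowest outside Fgf5 with Ap1m1, at 0.17. With Fgf5, E078 (-0.63, -0.92 and -1.16) and E079 (-0.60, -0.62 and -1.30) were lower than controls. Their values there came from 19 and 17 combinations above 0, with 7 and 9 more at 0. With combinations at 0 kept, these 2 calls were lost and 1 lower call remained, that of E084 with Ap1m1. E077, E078 and E079 ranked 51, 53 and 56 of 58 by their means, which include Fgf5.

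E084, the fragment inside the gene, changed from a moderate enhancer to below controls with the promoter. With Sox2 the replicates gave 1.60, 1.41 and 2.02, with Tbx3 1.15, 1.02 and 1.15, and with Lefty1 0.94, 1.22 and 1.41, all higher than controls. With Nanog (-0.08, 0.15 and 0.11), Klf2 (-0.12, -0.07 and 0.12) and Otx2 (-0.19, -0.27 and 0.26) the replicates lay on either side of 0 and the test was not passed. With Ap1m1 they were -0.62, -0.51 and -0.46, and E084 was lower than controls, at 0.663 times their activity. With Fgf5 the replicates were 1.02, 0.57 and 0.25, from 10 combinations, and the test was not passed. The replicates with Ap1m1 lay below those with each of the other promoters. Its range over promoters, 2.22, was the 17th widest of 58, and that of E081, 4.11, ranked 4.

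All 9 fragments differed between promoters in a limma F test over the 24 library replicates at a 5% false discovery rate, as did 98.2% of the 57 enhancers tested. The F statistic, which included Fgf5 for all fragments but E076 and E082, was highest for E081, 129, followed by E083 at 55.9 and E084 at 35.6. It was lowest for E080, at 18.4, and for E082, at 10.7. Among the middle and weak fragments the libraries of low baseline, Lefty1, Tbx3 and Sox2, mostly gave the higher boosts. Each promoter is 1 plasmid library, so that promoter and library cannot be told apart.

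Over all libraries the position differences of a fragment were smaller than its range between promoters, though no test compared them. Outside Fgf5 this did not hold for E077, with a range of 0.37 and a position difference of 0.41 with Tbx3, not called. E079 had a range of 0.55 outside Fgf5 and a position difference of -0.53 with Nanog. Of 69 fragment-promoter pairs measured in both positions, 17 were higher in position 2 and 15 were higher in position 1 (limma, 5% false discovery rate). Either difference was called for 50.6% of all 441 pairs of the assay, 24.5% being higher and 26.1% lower in position 2. The fragments nearest the gene start upstream moved one way and the fragment inside the gene the other. E081 was higher in position 2 in 6 of 8 libraries, by 0.17 to 0.50. With Ap1m1 its differences were 0.58, 0.42 and 0.49 in the replicates. E082 was higher in position 2 in 4 of 6 libraries, by 0.27 to 0.31, and E083 in 6 of 8, by 0.25 to 0.43.

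E084 was lower in position 2 in 7 of 8 libraries. With Lefty1 its boost in position 1 was 1.49, 1.57 and 1.70 in the replicates, and in position 2 it was 0.58, 0.63 and 0.94, so that the positions did not overlap. The difference was -0.87 with a standard error of 0.06 (limma adjusted p = 0.000753). With Nanog the fragment changed side, from 0.26, 0.44 and 0.58 in position 1 to -0.39, -0.24 and -0.15 in position 2. The smallest of the 7 differences that passed was -0.37, with Sox2. In Fgf5 the fragment had 7 and 3 combinations in the positions and did not pass. E079 was also lower in position 2 in 5 of 8 libraries, by 0.21 to 0.53, while E078 passed in 0 of 8 (2 at an unadjusted limma p under 0.05, in opposite directions) and E076, E077 and E080 passed in 1 or 2.

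Orientation was compared within each position. Of 134 comparisons at this locus, 14 were higher in plus and 37 higher in minus (limma, 5% false discovery rate), against 17.5% and 17.2% of all 813 comparisons, 34.7% together. Leaving out replicate 1 left 26 calls and leaving out replicate 2 left 4. Of the 37 higher in minus, 21 were of E080 and E081. E080 was higher in minus in 5 of 8 libraries in position 1, by 0.32 to 0.59, and in 6 of 8 in position 2, by 0.49 to 0.75. E081 was higher in minus in 5 of 8 libraries in each position, by 0.23 to 0.34. These E081 differences were small beside its boost, except with Ap1m1. There the difference of plus from minus was -0.29 in position 1 and -0.34 in position 2, beside boosts of 0.60 and 1.09. E083 passed in none of 8 comparisons in each position, and at an unadjusted limma p under 0.05 it passed in 0 and 1. E079 was higher in minus in 4 of 7 libraries in position 2, by 0.52 to 1.06. Numbers of combinations were uneven for some fragments, E077 having 132 in plus and 14 in minus in position 1 over all libraries.

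E084 alone among the 9 turned its preferred orientation with its position in every library tested. With Lefty1 in position 1, plus minus minus was 1.19, 1.13 and 1.41 in the replicates, and in position 2 it was -0.85, -1.02 and -1.39. The boosts behind these differences were 2.27 in plus and 1.14 in minus in position 1, and 0.10 in plus and 1.24 in minus in position 2. The plus orientation in position 2 was thus close to the level of controls. In position 1 plus was higher in 7 of 8 libraries, by 0.53 with Klf2 to 1.24 with Lefty1. In position 2 minus was higher in 6 of 7, by 0.20 with Ap1m1 to 1.09 with Lefty1. The difference between the orientation effects of the positions passed in 7 of 7 libraries, from 0.77 with Klf2 to 2.33 with Lefty1. This test was added after the data were seen. Over all enhancers it was passed by 18.7%, 9.60% with the larger plus preference in position 1 and 9.07% in position 2. The other Pou5f1 fragments passed it in 0 to 3 libraries each. Without replicate 2, 10 of the 13 called orientation differences of E084 lost their call and none of its 15 comparisons changed direction. Whether plus has the same sense along the plasmid in each position was not checked against reads here, and position 1 and position 2 are read from opposite ends of the insert.

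Pairs of Pou5f1 fragments were set against an additive expectation, the sum of both single activities in their positions minus the baseline, computed in each replicate. Of 436 pair-promoter combinations that could be tested, from 72 ordered pairs, 57 lay above the expectation and 66 below it (limma, 5% false discovery rate). Without replicate 1 the counts were 36 and 34, and without replicate 2 they were 25 and 21. As reported this is 13.1% above and 15.1% below, against 24.0% and 14.0% of the 19500 tested in the assay. The median log2 observed over expected was -0.02 at this locus and 0.06 over all pairs. Against the stronger of both single fragments, 144 pairs were higher and 72 lower, whereas 53.0% of all pairs were higher and 7.09% lower. Part of the spread is shared by the replicates. Over 271 pairs with 3 or 4 orientation combinations, the median SD between orientations was 0.27 and that between replicates 0.15, so a call says that a plasmid set differed from its expectation in each transfection.

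The direction followed the promoter. With Lefty1, 17 of 70 pairs were above and 3 below the expectation, where 45.2% and 8.74% of all pairs of that library were. With Tbx3 the counts were 20 and 3 of 63 (45.4% and 7.19% of all), and with Sox2 8 and 3 of 32 (37.0% and 8.46% of all). Fgf5 had 7 above and 0 below among 25, against 30.8% and 1.53%, with 1 below at an unadjusted limma p under 0.05. Promoters of higher baseline gave the opposite. With Nanog 2 pairs were above and 17 below of 64, against 11.9% and 23.8%. Klf2 gave 1 and 13 of 55 (11.3% and 17.9% of all), and Otx2 2 and 13 of 59 (9.41% and 20.2%). With Ap1m1 0 of 68 were above, also at an unadjusted limma p under 0.05, and 14 were below, against 6.69% and 16.6%. In each library the share above was smaller at this locus than in the whole library.

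Of 113 pairs that held E084, 8 were above and 29 below, and 48 were lower than the stronger single fragment. Of these, 14 of the 29 below were of E084 with E081. The 98 pairs of E084 with other fragments gave 8 above and 15 below, with 33 lower than the stronger single fragment. Of the 218 pairs with neither E081 nor E084, 34 were above and 21 below, and 14 were lower than the stronger single fragment. By position, E084 in position 2 gave 2 above and 16 below of 54, and E079 in position 2 gave 2 above and 13 below of 38. E083 in position 2 gave 17 above and 1 below of 58. Over all 19500 pairs of the assay, in any position, 24.0% were above and 14.0% below, and 7.09% were lower than the stronger single fragment.

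The pair of E081 in position 1 and E084 in position 2 was below the additive expectation in 7 of 7 libraries. With Lefty1, E081 alone had a boost index of 4.84 in position 1 and E084 alone 0.63 in position 2, and the expectation was 4.86. The pair reached 3.72, 3.85 and 3.96 in the replicates, and its log2 observed over expected was -0.98, -1.07 and -0.98 (mean -1.01, SE 0.05, limma adjusted p = 0.00443). The pair was thus weaker than E081 with a control. With Nanog, where E081 alone gave 2.34 and E084 alone -0.36, the pair gave 1.01, 1.49 and 1.30. With Sox2, where E084 alone was active at 1.43, the pair gave 3.87, 3.69 and 3.72 against 4.38 for E081 alone. With Ap1m1 the pair, at -0.39, -0.09 and -0.30, was below controls in all replicates while E081 alone was at 0.60. Over the 7 libraries the deviation from the expectation ran from -0.45 with Ap1m1 to -1.01 with Lefty1, and that from the stronger single from -0.66 to -1.05, all passing.

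All 28 orientation combinations of this pair over the 7 libraries lay below the expectation, the nearest at -0.07. The expectation, here and for other pairs, pools the orientations of each single fragment. Deviations by orientation therefore also hold orientation effects of the single fragments. By orientation of E084 the median deviations were -0.73 and -0.43 with E084 in plus and -1.08 and -0.97 with it in minus, for E081 in plus and minus. Fgf5 could not be tested in this order, since E084 had fewer than 5 control combinations in position 2. The 4 orientation combinations there had boosts of 3.21 to 3.43.

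The reverse order, E084 in position 1 and E081 in position 2, was below the expectation in 7 of 8 libraries, by 0.44 to 0.64 over all 8. With Lefty1 it gave 4.37, 4.55 and 4.67, where E081 alone in position 2 gave 5.04. It was lower than the stronger single fragment in 8 of 8 libraries, by 0.37 to 0.71, and all 32 orientation combinations lay below the expectation. The deviation from expectation with Fgf5 was -0.41, -0.37 and -0.55, and was not called (limma adjusted p = 0.0592).

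E083 beside E081 gave the contrary pattern. With E081 in position 1 and E083 in position 2 the pair was above the expectation in 7 of 8 libraries. Without replicate 2, 3 of these calls were lost, and without replicate 1 or replicate 3, 1 was lost. With Tbx3 it reached 5.66, 5.54 and 5.05 in the replicates, where E081 alone gave 4.47 in position 1 and E083 alone 1.54 in position 2, and the expectation was 4.59. The log2 observed over expected was 0.87, 0.88 and 1.00 (mean 0.92, SE 0.06, limma adjusted p = 0.00443). With Lefty1 the deviation was 0.74, 0.73 and 0.80, with Fgf5 0.65, 0.70 and 0.70, and with Sox2 0.46, 0.49 and 0.43. It was smaller with the promoters of higher baseline, at 0.39 with Otx2, 0.38 with Klf2 and 0.35 with Nanog, and with Ap1m1 it was 0.13 and not called. The pair was higher than E081 alone in 8 of 8 libraries, by 0.47 to 1.04, and all 32 orientation combinations lay above the expectation. Under a multiplicative expectation, in which boost indices add, the called deviations turned negative, from -0.31 with Klf2 to -0.82 with Sox2, with the exception of Fgf5 (0.72). In the reverse order the pair was above the expectation in 2 libraries only, Lefty1 (0.29) and Tbx3 (0.31).

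A further 11 ordered pairs deviated in the same direction in at least 3 libraries. Above the expectation were E084 with E083 in position 2 (Fgf5 1.40, Lefty1 0.72, Tbx3 0.70 and Sox2 0.25, but below it with Ap1m1 at -0.34), E080 with E076, E080 with E083, E081 with E076, E083 with E076 and E083 with E080, the first fragment being in position 1. For E080 with E076 the 3 passing values were 0.54, 0.67 and 0.71, with Sox2, Tbx3 and Lefty1. The 3 passing values were 0.38 to 0.49 for E080 with E083, 0.20 to 0.53 for E081 with E076, 0.36 to 0.57 for E083 with E076 and 0.35 to 0.54 for E083 with E080. The partners E076 and E083 in position 2 recur among the pairs above, which was not tested against other partners. Over the whole assay 45.2%, 45.4% and 37.0% of pairs were above with Lefty1, Tbx3 and Sox2. The share of all ordered pairs called in the same direction in at least 3 libraries was not determined. Below the expectation were E081 with E079 in 5 libraries, E082 with E081 in 4 of 6, and E077 with E084, E084 with E080 and E083 with E079 in 3 each. E077 with E084 ranged from -0.33 to -0.95 among these but rested on 1 or 2 orientation combinations. E083 with E079 was above the expectation in Sox2 (0.67, from 1 orientation combination) and Fgf5 (1.51). It was below the expectation by 0.23 to 0.32 in the 3 others.

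The most deviant called pairs of several libraries rested on few plasmids. With Tbx3 the highest was E078 with E077 (1.68, 1.49 and 0.64) and with Ap1m1 the lowest was the same pair (-0.72, -1.15 and -0.91), each from 1 orientation combination. The lowest with Nanog, E077 with itself (-0.97, -0.63 and -1.58), also came from 1. With Klf2 the lowest was E077 with E084 (-0.29, -0.97 and -1.59), from 1. With Sox2 the highest was E083 with E079 (0.97, 0.16 and 0.88), also from 1. With Lefty1 the highest was E076 with E080 (0.85, 0.75 and 0.78), whose 3 orientation combinations ran from -0.43 to 1.87. With Fgf5 the highest was E083 with E077 (1.86, 2.01 and 2.11), in a library where E077 alone lay below the baseline. Its combined boost was 0.45 against an expected -0.77, and its 2 orientation combinations deviated by 0.86 and 1.59, less than the replicate values. With Nanog the highest was E083 with E076 (0.45, 0.46 and 0.16). The lowest called pair with Lefty1, Tbx3, Sox2 and Otx2 was E081 with E084 in each, with deviations of -1.01, -0.92, -0.78 and -0.77 from 4 orientation combinations.

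The order of fragments within a pair was tested for 201 pair-promoter combinations, of which 42 were higher with the fragment of lower number in position 1 and 40 in the reverse (limma, 5% false discovery rate), against 37.7% of all 9012 in either direction, 20.7% and 17.0% by direction. E084 was the clearest case. E081 with E084 in position 2 was lower than with E084 in position 1 in 7 of 7 libraries, by 0.34 to 0.93. E082 and E083 behaved alike, lower with E084 in position 2 in 6 of 6 (by 0.71 to 0.98) and 7 of 7 (by 0.52 to 1.11). Pairs of E079 with E081, E082 and E083 were higher with E079 in position 1 in 6 of 8, 5 of 6 and 5 of 8 libraries. For E081 and E083 the order with E081 in position 1 was higher in 5 of 8, by 0.21 to 0.31. These differences hold the position effects of the single fragments as well as any of the pair. The order test was added after the data were seen.

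Partners from other loci give a scale for these pairs. With E081 in position 1, E084 had the lowest change against E081 alone of all 53 to 57 partners measured in a library, in 7 of 7 libraries, with changes of -0.64 to -1.04. E083 ranked between 2 and 4 from the highest in all 8, with changes of 0.59 to 1.02. With E081 in position 2, E084 ranked between 1 and 3 from the lowest in 8 of 8 libraries and was the lowest in 4, and E083 ranked between 4 and 24 from the highest. These ranks are descriptions and were not tested.

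The same fragments were followed beside active enhancers of other loci, those with a single boost index of at least 1. With E084 in position 2, 148 such pairs were measured, of which 27 were higher and 91 lower than the stronger single fragment (limma, 5% false discovery rate). Over all pairs of the assay 53.0% were higher and 7.09% lower, and the same active enhancers with all other partners in position 2 gave 60.7% and 5.87%. All 23 with Nanog, all 15 with Klf2 and all 19 with Otx2 were lower, with median changes of -0.82, -0.74 and -0.88 against the active partner alone. Among promoters with which E084 itself was active, 15 of 32 were higher and 9 lower with Sox2, 8 of 31 and 15 with Lefty1, and 4 of 28 and 10 with Tbx3. In position 1, E084 gave 65 higher and 52 lower of 163. E083 gave 158 higher of 160 in position 2 and 154 higher of 162 in position 1, with 0 lower in either, also at an unadjusted limma p under 0.05. Other partners in position 1 gave 60.4% higher and 4.73% lower. Choosing partners by a high single value favours values below it in any second measurement, a shift that bears on E083 and E084 alike.

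Whether fragments of 1 locus combine otherwise than fragments of different loci was asked over the 8 libraries. The median log2 observed over expected of pairs within the locus minus that of pairs of a Pou5f1 fragment with an enhancer of another locus was lowest with Lefty1, at -0.09, and highest with Fgf5, at 0.07. The mean was -0.01 (SD 0.05, n = 8 libraries), lower within the locus in 6 of 8, and the test was not passed (two-sided exact sign-flip permutation test, p = 0.445, where the smallest possible p is 0.00781).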

How the data were processed

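Enhancer fragments, controls and 8 promoters were combined in barcoded reporter plasmids, and 73 sequenced samples covered reporter RNA (48, with 3 replicates of each library in 2 runs each), plasmid DNA (16) and barcode-to-fragment linking reads (9). The authors assigned fragment reads with Bowtie2, kept barcodes with at least 8 plasmid counts and combinations with at least 5 barcodes, and deposited for each combination and replicate the activity, a ratio of RNA to plasmid barcode counts, each relative to its total. Other deposited columns, not used here, hold the authors' own baselines, boosts and ratios of observed to expected activity. Listed coordinates are mm10. Depth and barcode numbers per combination were not given in the sources used here, so no counting interval was set.

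Groups came from the labels, and the combined value is the geometric mean of the replicates. Combinations with an activity of 0 in any replicate were left out. Singles were medians over combinations with a control, with at least 5 in each position for pair expectations, and singles were set against control-control combinations by exact rank-sum tests (R 4.3.3 for limma 3.58.1, Python 3.11.15, scipy 1.17.1). All other tests across features used limma on replicate values within a library (for the F test over promoters, over all libraries), with Benjamini-Hochberg adjustment over the whole assay. The rank-sum, position and additive tests were tested on simulated data, in which scatter shared by the replicates of a pair also gave calls against the expectation. Replicates were transfected on different days from the same plasmids, so limma p-values cover that spread only and not the cloning or barcodes of a library. Rank-sum p-values cover the spread between combinations of a library and not that between transfections. Alternatives left out replicates, changed averages, minimum numbers, controls or the expectation. Others were chosen after seeing the data (without Fgf5, without E081 and E084 pairs, a limit of 1 propagated SD, matching by fragment and position). The test of orientation effects between positions and the test of pair order were also added after the data were seen. Every fragment was described, and ordered pairs were named where called in the same direction with at least 3 promoters or most deviant with a promoter. The members and lists were chosen with earlier results of these data known. The planned motif search was not done, as fragment sequences were not used here.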

Additional observations from a re-analysis of the deposited data

Results flagged for a closer look

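Of the fragments, 5 changed sign between promoters, with all replicates above controls with some promoters and all below with another. The share of all enhancers that did so was not determined. E077, E078, E079 and E083 were below controls in each replicate with Fgf5 only and above in each replicate with the other 7 promoters. The limma F statistics of their differences between promoters were 22.3, 26.7, 19.1 and 55.9. Against controls with Fgf5, only E078 and E079 of these fragments passed the rank-sum test. Fgf5 is the library whose baseline rested on 23 control-control combinations, and its part in these differences was not tested beyond leaving the library out. These values leave out combinations at 0, which were 37 of 60 control-control combinations there. With a control, they were 9 of 26 for E079, 7 of 26 for E078, 7 of 38 for E083 and 6 of 23 for E077. With combinations at 0 kept, 1 fragment-promoter pair was lower than controls, E084 with Ap1m1. For E083 the combined value with Fgf5 was 0.15, above controls, while the replicates were -0.15, -0.20 and -0.19. For E079 the combined value with Ap1m1 was -0.03, while the replicates were 0.09, 0.04 and 0.02. E084 was above controls in each replicate with Lefty1, Tbx3, Sox2 and Fgf5 and below them with Ap1m1 (F = 35.6). With Fgf5 it had 10 combinations and did not pass (rank-sum test, adjusted p = 0.282).

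Among the ordered pairs, E083 with E079 was above the additive expectation in all replicates with Fgf5 and Sox2 and below it with Klf2, Nanog and Otx2. The span between the extreme log2 deviations was 1.83. The Sox2 value came from 1 orientation combination (0.97, 0.16 and 0.88 in the replicates). E084 with E083 was above the additive expectation with Fgf5, Lefty1, Sox2 and Tbx3 and below it with Ap1m1, a span of 1.75. The difference between promoters was not tested for either pair.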

How the results depend on the processing

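The number of fragment-promoter pairs higher than controls was 54 to 58 under all alternatives run (56 as reported), that of lower pairs was 1 to 4 (3 as reported), and that of fragments differing between promoters was 9 throughout. Leaving out 1 replicate moved called orientation differences from 51 to between 4 and 41 (26 without replicate 1, 4 without replicate 2, 41 without replicate 3), pairs above the additive expectation from 57 to between 25 and 55 (lowest without replicate 2), pairs below it from 66 to between 21 and 63 (lowest without replicate 2), and pairs above the stronger single from 144 to between 95 and 127 (lowest without replicate 1 and without replicate 2). A multiplicative expectation gave 25 pairs above and 185 below. With each orientation combination tested by itself there were 217 above and 210 below, of 1276. A limit of 1 propagated SD of the expectation gave 37 above and 20 below, and pairs without E081 and E084 gave 34 and 21 of 218. The difference between pairs within the locus and pairs with other loci was -0.0132 as reported. It lay between -0.0389 and 0.0264 with 1 replicate left out, turning positive without replicate 1 and passing without replicate 2 (exact permutation p = 0.0156). It was 0.0421 under the multiplicative expectation and -0.0266 with at least 10 control combinations, where it passed (exact permutation p = 0.0391).

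Under the multiplicative expectation the following deviations of named pairs, called under either expectation, changed sign. Sign changes of deviations called under neither are not listed. E081 with E083 became -0.31 (Klf2), -0.61 (Lefty1), -0.52 (Nanog), -0.35 (Otx2), -0.82 (Sox2) and -0.46 (Tbx3). E081 with E076 became -1.28 (Lefty1), -0.20 (Otx2), -1.66 (Sox2) and -0.88 (Tbx3). E080 with E083 became -0.0218 (Lefty1), -0.22 (Nanog), -0.23 (Sox2) and -0.0219 (Tbx3). E083 with E076 became -0.20 (Lefty1), -0.0194 (Nanog) and -0.11 (Tbx3). E084 with E083 became -0.073 (Lefty1), -0.21 (Nanog), -0.59 (Sox2) and -0.0525 (Tbx3). E080 with E076 and E084 with E080 became -0.26 and -0.55 (Sox2), and E083 with E080 became -0.0507 (Tbx3). Of differences called in either fit, a mean of log2 values in place of the median turned 2. Both were of E078, in position with Klf2 (-0.14) and in orientation in position 2 with Lefty1 (-0.063). Of values called as reported or under an alternative, none of E084 by position and orientation or of E081 with E084 changed sign. E081 with E084 lost its call in Ap1m1 without replicate 1, without replicate 2 and under the multiplicative expectation. With Fgf5 the position difference of E084, not called, was -0.81, 0.85 and 0.14 in the replicates. Causes were not tested.

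Replicate numbers were checked for pairing across libraries. Of 84 correlations of same-numbered deviations 71 were over 0.1 (mean 0.36, lowest -0.23), and 23 of 24 samples were closest to their own number, so the samples share a number and no stated pairing. With the replicate number as a block, 9 of 9 fragments still differed between promoters and the difference between loci was -0.0105 (exact permutation p = 0.625).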

Other observations

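Combinations of a Pou5f1 fragment with a control that had an activity of 0 in any replicate were unevenly spread. Of 48 such combinations 37 lay in the Fgf5 library, among 232 measured there. None of the 90 combinations of E081 in that library was at 0, whereas E079 had 9 of 26, E078 7 of 26, E083 7 of 38, E077 6 of 23, E080 5 of 16 and E084 3 of 13. Of the control-control combinations of that library, 37 of 60 were at 0.

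Pairs of the same fragment or of overlapping fragments numbered 32, and those among E077, E078 and E079 rested on 1 orientation combination each. Of the 32, 5 were above the additive expectation and 8 below it, against 24.0% and 14.0% of all 19500 pairs. The neighbours E082 and E083 were above it in either order with Tbx3 (0.73, 0.53 and 0.47 in the replicates with E082 in position 1, and 0.42, 0.53 and 0.48 in the reverse), and below it with Otx2 with E083 in position 1 (-0.39, -0.27 and -0.23).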
